A study of Homo sapiens with 8 samples.

Results

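The CD1 lipid antigen presenting family consists of CD1A, CD1B, CD1C, CD1D and CD1E, whose rows were taken from the table of normalized counts by gene symbol. The family was picked with earlier results of these data known. All 5 genes were present among the 18133 rows, and all 5 passed the filter of a mean of at least 10 normalized counts that left 13885 genes for testing. They were measured by RNA sequencing in DND41, a human cell line of T-cell acute lymphoblastic leukemia (T-ALL). Each culture received doxycycline for 72 h, which induced either a hairpin against SIRT1, a deacetylase of the nucleus that consumes NAD, or a control hairpin. The groups were the SIRT1 hairpin sh1 with 3 libraries (A, B and C), the SIRT1 hairpin sh3 with 3 libraries (A, B and C), and the control hairpin shC with 2 libraries (A and C). All 8 libraries therefore came from the same line and shared the doxycycline treatment, so that no uninduced or uninfected cells enter a comparison. The labels do not explain the 1 and 3 in the hairpin names, and no shC library B was analysed here. Plating was in triplicate, and the labels mention no separate infections. The p-values therefore reflect the spread between these cultures only, which may be technical.

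CD1 proteins are non-polymorphic relatives of the MHC class I heavy chain that pair with beta-2-microglobulin and hold lipids instead of peptides in their groove. CD1A, CD1B and CD1C present lipid antigens to diverse T cells, CD1D presents them to natural killer T cells, and CD1E stays inside the cell, where it helps to load lipids onto other CD1 proteins. In the thymus the family is known as a marker of cortical thymocytes, and T-ALL of the cortical type is recognised by CD1A on the cell surface. The genes lie side by side on chromosome 1, apart from the MHC.

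On GRCh38 with GENCODE 29 the family spans 178 kb of chromosome 1, from 158179947 to 158357553. CD1D (ENSG00000158473) occupies 158179947 to 158184896, CD1A (ENSG00000158477) 158254137 to 158258269, CD1C (ENSG00000158481) 158289786 to 158293630, CD1B (ENSG00000158485) 158327951 to 158331531 and CD1E (ENSG00000158488) 158353696 to 158357553. CD1B is on the minus strand and the other 4 genes are on the plus strand.

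The promoter windows of the members that matched are shown because the members fell together with sh3, each window running for 300 bases along the plus strand. Capitals mark every match to the motifs searched on both strands, which were TATAAA for the TATA box, CTTTGA for TCF/LEF factors, TGNGGT for RUNX factors, AGATAA for GATA factors, AGGAAG for ETS factors, CANNTG for the E-box and TGGGAA for CSL, the DNA-binding partner of NOTCH. Sequences are from RefSeq on GRCh38.p14, and where RefSeq gives several starts the window nearest the GENCODE start is printed. The RefSeq start lies 0 bases from the GENCODE start for CD1D, 287 for CD1A, 137 for CD1C and 198 for CD1E. For CD1A, CD1C and CD1E it lies inside the GENCODE gene, and the CD1A window lies wholly inside it.
CD1D promoter, chr1:158179697-158179996, plus strand: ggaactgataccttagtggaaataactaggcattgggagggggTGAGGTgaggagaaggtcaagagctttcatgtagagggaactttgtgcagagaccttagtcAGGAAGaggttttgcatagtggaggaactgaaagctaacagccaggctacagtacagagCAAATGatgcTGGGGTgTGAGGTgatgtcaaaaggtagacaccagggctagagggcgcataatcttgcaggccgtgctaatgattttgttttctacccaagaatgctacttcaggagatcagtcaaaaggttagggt
CD1A promoter, chr1:158254174-158254473, plus strand: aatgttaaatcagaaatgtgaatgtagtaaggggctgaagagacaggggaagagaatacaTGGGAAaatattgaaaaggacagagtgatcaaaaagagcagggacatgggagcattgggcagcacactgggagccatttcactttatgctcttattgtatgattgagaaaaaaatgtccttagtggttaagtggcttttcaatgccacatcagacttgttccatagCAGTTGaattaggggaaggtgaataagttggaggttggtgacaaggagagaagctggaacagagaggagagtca
CD1C promoter, chr1:158289673-158289972, plus strand: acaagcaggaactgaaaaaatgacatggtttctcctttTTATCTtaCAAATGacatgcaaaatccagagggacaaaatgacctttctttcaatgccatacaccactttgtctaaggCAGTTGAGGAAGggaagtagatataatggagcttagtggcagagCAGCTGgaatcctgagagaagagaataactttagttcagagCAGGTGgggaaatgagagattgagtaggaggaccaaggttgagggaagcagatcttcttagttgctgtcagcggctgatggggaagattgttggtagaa
CD1E promoter, chr1:158353644-158353943, plus strand: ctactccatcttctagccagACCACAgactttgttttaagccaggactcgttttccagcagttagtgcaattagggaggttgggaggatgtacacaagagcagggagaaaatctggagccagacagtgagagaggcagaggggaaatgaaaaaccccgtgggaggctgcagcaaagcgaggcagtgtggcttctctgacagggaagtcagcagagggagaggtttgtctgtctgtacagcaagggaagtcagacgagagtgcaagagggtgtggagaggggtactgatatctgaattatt

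With the RefSeq start base counted as 0, the CD1D window held RUNX matches whose first bases lie at -207, -77 and -70, an ETS match at -146 and an E-box at -87. The CD1A window held a CSL match at -190 and an E-box at -24. The CD1C window held a GATA match on the minus strand at -212, an ETS match at -128, and E-boxes at -204, -134, -90 and -49. The CD1E window held a single match, a RUNX match on the minus strand at -230. No motif was thus shared by all 4 windows, and no TATA box match lay in any of them. RefSeq gives another start for CD1A and for CD1D, whose windows are not printed and differ in their matches. The other CD1A window, 5801 bases from the GENCODE start, held 2 RUNX, 1 GATA, 2 ETS and 3 E-box matches. The other CD1D window, 948 bases from the GENCODE start, held 2 TCF/LEF matches and 12 CpG dinucleotides. Among 35116 RefSeq promoter windows of this length, 43.2% held a RUNX match, 33.6% ETS, 68.7% an E-box, 24.0% CSL, 10.3% GATA, 12.9% TCF/LEF and 11.5% a TATA box. GC content of the printed windows was 47.3% for CD1D, 42.0% for CD1A, 43.0% for CD1C and 51.0% for CD1E, against a median of 58.7% over all windows. They held 2, 0, 1 and 4 CpG dinucleotides in the same order, against a median of 14. These matches are a description of letters and say nothing of which factors bind.

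The CD1 transcripts also share coding sequence, which matters for how reads are assigned. The longest identical run between CD1B and CD1E, 88 bases long, is shown because these are the most abundant members in the controls. It lies in exon 4 of 6 of CD1B-201 and exon 3 of 5 of CD1E-213.
CD1B and CD1E shared coding run: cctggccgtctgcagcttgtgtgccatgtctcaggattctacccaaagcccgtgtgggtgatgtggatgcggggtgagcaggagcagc

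The last 80 of these 88 bases also occur in CD1A. Of the different 31-base words in the GENCODE transcripts, 4.4% of those of CD1A, 5.45% of CD1B, 2.74% of CD1D and 3.33% of CD1E occur in another gene, in each case another CD1 gene, and 0.0% of those of CD1C do. Reads from these stretches could be split among the members, so that low levels of CD1A, CD1D and CD1E beside abundant CD1B are uncertain to that extent.

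The library totals lay between 33087819 and 34072668 normalized counts. The targeted gene SIRT1 was at 1259, 1312 and 1329 normalized counts with sh1, at 1099, 1217 and 1179 with sh3, and at 1745 and 1920 with shC, so that all 6 SIRT1 hairpin libraries lay below both controls and the mean was 29.1% lower with sh1 and 36.4% lower with sh3. The labels of sh3 C contradict each other, since by title and genotype it carries a SIRT1 hairpin and by description the control hairpin. Its values correlated across genes with sh3 A and B at a Spearman coefficient of 0.9955 to 0.996, with sh1 at 0.9923 to 0.9932 and with shC at 0.991 to 0.9925, and it was kept with sh3. Of 12 T lineage markers 10 stood at 337 normalized counts or more in every library, CD3E being highest at 18528 to 26148 over the 8 libraries, whereas CD2 stood at 17.3 to 63.1 and TRBC2 at 0 to 7.64. CD4, at 0 to 6.92, and CD8B, at 2.51 to 13.0, did not pass the filter and CD8A stood at 16.1 to 49.2. These 6 genes were picked with their values in view.

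The comparison of both SIRT1 hairpins with the control asks how the levels of the family differed between the SIRT1 hairpins and the control hairpin. CD1A, CD1B, CD1D and CD1E fell over the mean of the hairpins, 4 of 5 members with 0 rising, beside 6.19% of all genes tested that fell and 6.55% that rose. With sh3 all 5 genes fell, CD1E to 5.67% of its control mean and the others to between 39.7% and 61.8%, beside 9.19% of genes tested that fell and 9.36% that rose. With sh1 CD1A alone of the 5 fell, to 62.2% of its control mean, beside 3.43% of genes that fell and 2.88% that rose, and CD1E was at 50.8% without passing the test. Genes were called at a limma p adjusted over all 13885 genes of under 0.05. In these bulk samples fewer cells expressing a gene and less RNA per cell cannot be told apart.

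**Figure D1:**
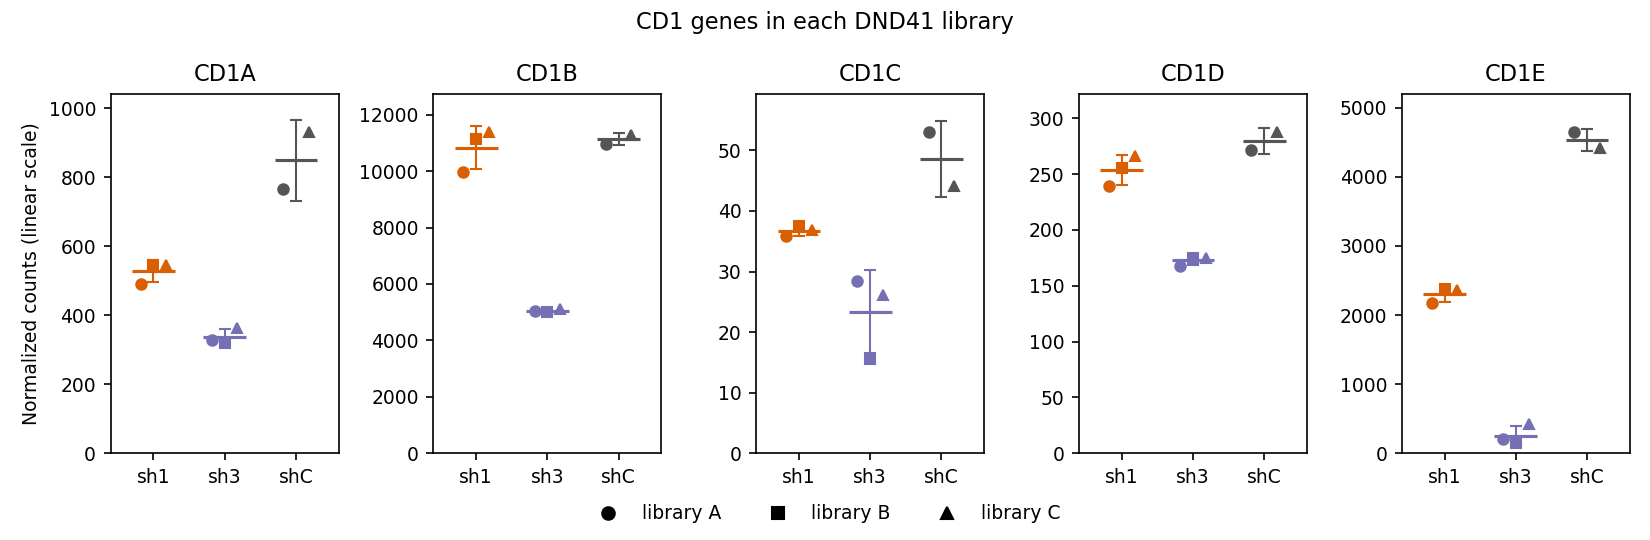
Normalized counts of each CD1 gene (vertical axes, linear, each with its own scale) in the libraries of sh1, sh3 and shC (horizontal axes). Points are libraries, shaped by library letter, and bars give the mean and SD of 3, 3 and 2 libraries. The sh3 points lie below all other points in every panel, and CD1E has the lowest sh3 values relative to shC, with 149 to 418 in sh3 libraries and 4417 to 4648 in shC libraries.

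CD1E, the intracellular lipid transfer member, stood at 2171, 2384 and 2356 normalized counts with sh1, at 203, 149 and 418 with sh3, and at 4648 and 4417 with shC. The 3 groups do not overlap, and sh3 C is the highest of the sh3 libraries at 9.23% of the control mean, against 4.48% for sh3 A and 3.29% for sh3 B. Group means were 2304 ± 115 with sh1, 257 ± 142 with sh3 (SD, n = 3 each) and 4533 ± 163 with shC (SD, n = 2), which is 1.97-fold lower with sh1 and 17.6-fold lower with sh3. The log2 fold change was -4.27 ± 0.30 with sh3 (SE, limma adjusted p = 6.8e-06) and -2.63 ± 0.27 for the mean of the hairpins (adjusted p = 0.00017). In the sh3 comparison 7 of the 13885 genes tested had a lower log2 fold change than CD1E. Without sh3 C, the library with contradictory labels, the log2 fold change with sh3 was -4.69.

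With sh1 the log2 fold change of CD1E was -0.98 ± 0.30, with a 95% interval of -1.63 to -0.32 and a limma adjusted p of 0.080. The fit pools the spread of all 3 groups, and this call depended on it: the adjusted p was 0.00020 with only sh1 and shC in the fit, 0.033 without sh3 B and 0.0019 without sh3 C, at an unchanged log2 fold change. Over all alternatives run the adjusted p ranged between 0.00020 and 0.27.

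CD1A, the marker used to define cortical T-ALL, stood at 491, 545 and 546 normalized counts with sh1, at 327, 319 and 364 with sh3, and at 766 and 931 with shC. The groups are again separate, with the controls farther apart than the libraries of either hairpin. Means were 528 ± 31.3 with sh1, 337 ± 23.9 with sh3 (SD, n = 3 each) and 849 ± 116 with shC (SD, n = 2). The log2 fold change was -0.68 ± 0.11 with sh1 (SE, limma adjusted p = 0.0054) and -1.33 ± 0.11 with sh3 (adjusted p = 2.2e-05). The sh1 call ended without shC C, where it was -0.54 with an adjusted p of 0.076.

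CD1B, which presents long-chain lipids such as those of mycobacteria, was the most abundant member, at 9949, 11153 and 11383 normalized counts with sh1, at 5029.6, 5017 and 5112 with sh3, and at 10971 and 11286 with shC. The sh1 values enclose both controls, while the sh3 values lie in a narrow band at 45.4% of the control mean. The log2 fold change was -1.14 ± 0.058 with sh3 (SE, limma adjusted p = 9.8e-07) and -0.04 ± 0.058 with sh1 (adjusted p = 0.72, 95% interval -0.17 to 0.08). The interval with sh1 leaves room for a fall of 0.17 on the log2 scale and not for one of the size seen with sh3.

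CD1D, the restricting molecule of natural killer T cells, stood at 239.7, 256 and 267 normalized counts with sh1, at 168, 175 and 175 with sh3, and at 272 and 288 with shC. All sh1 libraries were below both controls, by a small margin. The log2 fold change was -0.14 ± 0.11 with sh1 (SE, limma adjusted p = 0.52, 95% interval -0.39 to 0.11) and -0.69 ± 0.11 with sh3 (adjusted p = 0.0020). For the mean of the hairpins it was -0.42 ± 0.10 (adjusted p = 0.022), a call that ended without shC A (adjusted p = 0.078) or shC C (adjusted p = 0.19).

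CD1C, which presents lipids such as mycobacterial phosphoketides, was the least abundant, at 35.8, 37.6 and 36.8 normalized counts with sh1, at 28.4, 15.6 and 26.1 with sh3, and at 53.0 and 44.2 with shC. The groups do not overlap, yet sh3 B is far below the other sh3 libraries. The log2 fold change was -0.39 ± 0.30 with sh1 (SE, limma adjusted p = 0.48, 95% interval -1.04 to 0.26), -1.06 ± 0.30 with sh3 (adjusted p = 0.030) and -0.73 ± 0.26 for the mean of the hairpins (adjusted p = 0.095). The sh3 call ended without sh3 B (-0.81, adjusted p = 0.079), without shC A (adjusted p = 0.15) and without shC C (adjusted p = 0.10).

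All 6 SIRT1 hairpin libraries lay below both controls for 4 of 5 members, against 11.4% of genes tested. The 3 sh1 libraries did so for 4 of 5, against 18.9%, and the 3 sh3 libraries for 5 of 5, against 25.1%. The median log2 fold change of the family was -0.73 over the mean of the hairpins, -0.39 with sh1 and -1.14 with sh3, beside medians of -0.0022, -0.00044 and 0.00034 over all genes tested. The 3 comparisons share the control libraries and are not independent of each other.

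**Figure D2:**
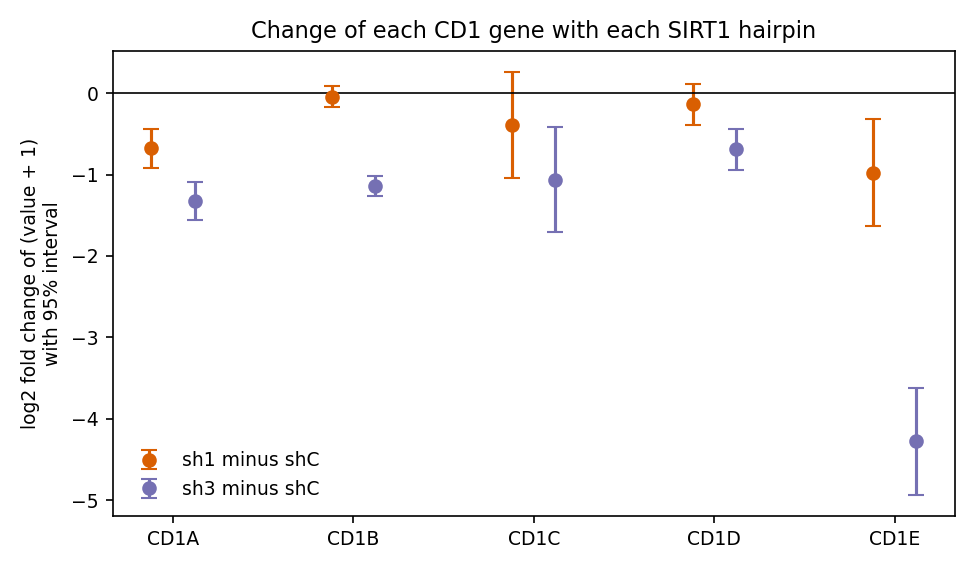
Log2 fold change of (normalized count + 1) against shC on the vertical axis for each CD1 gene on the horizontal axis, with sh1 left of sh3. Points are limma estimates and bars 95% intervals. The sh3 estimates lie between -0.69 and -4.27, and the sh1 intervals of CD1B, CD1C and CD1D include 0.

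The hairpins were then compared with each other, which tests whether the response differed between them. Levels were higher with sh1 than with sh3 by 0.65 for CD1A (95% interval 0.43 to 0.86, limma adjusted p = 0.0013), by 1.10 for CD1B (0.98 to 1.21, adjusted p = 3.7e-07), by 0.55 for CD1D (0.33 to 0.77, adjusted p = 0.0048) and by 3.30 for CD1E (2.71 to 3.88, adjusted p = 2.2e-05), all on the log2 scale. The difference in CD1C was 0.67 (0.09 to 1.25) and did not pass (adjusted p = 0.13). Thus 4 of 5 members passed, beside 5.61% of genes tested that were higher with sh1 and 5.83% that were lower, and all 5 had every sh1 library above every sh3 library, as did 15.2% of genes tested. In the same comparison SIRT1 differed by 0.16 ± 0.063 (SE, adjusted p = 0.14). Whether the changes of the CD1 genes follow from lower SIRT1 or from other effects of a hairpin was not tested.

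Levels can be set against each other only per length, and per kb of the longest coding transcript CD1B led in every group. In shC it had 7978 ± 159 normalized counts per kb, followed by CD1E with 2490.5 ± 89.7, CD1A with 405 ± 55.5, CD1D with 124 ± 5.08 and CD1C with 33.9 ± 4.35 (SD, n = 2). With sh1 the order was the same, with CD1E at 1266 ± 63.4 and CD1A at 252 ± 14.9 normalized counts per kb (SD, n = 3). With sh3 CD1A, at 161 ± 11.4, and CD1E, at 141 ± 78.3 normalized counts per kb (SD, n = 3), did not differ beyond their spread. Their order turns when the median transcript length is used, which puts CD1E at 274 and CD1A at 161 with sh3, and CD1E at 2461 with sh1 and 4843 with shC, since GENCODE lists 15 transcripts of CD1E and their lengths differ.

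Summed per kb over the family, the CD1 signal was 8691, 9705 and 9858 with sh1, 3968, 3919.6 and 4164 with sh3, and 10942 and 11120.0 with shC. Within that sum the share of CD1E was 13.1% to 13.7% with sh1, 2.09% to 5.52% with sh3 and 21.8% to 23.3% with shC, with no overlap between groups. The share of CD1B was accordingly larger with the SIRT1 hairpins, at 82.1% to 82.8% with sh1, 88.0% to 91.8% with sh3 and 71.9% to 72.8% with shC. Shares of the same sum depend on each other, and CD1B itself did not rise with either hairpin. The ratio of CD1E to CD1B per kb was 0.163 ± 0.0044 with sh1, 0.039 ± 0.021 with sh3 (SD, n = 3 each) and 0.312 ± 0.017 with shC (SD, n = 2). With the median transcript length, an alternative chosen after seeing the data for these sums, the ratio was 0.275 with sh1, 0.065 with sh3 and 0.527 with shC, and the share of CD1E was 20.4% to 21.2% with sh1, 3.50% to 9.03% with sh3 and 32.2% to 34.1% with shC. The order of the groups was the same with either length.

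**Figure D3:**
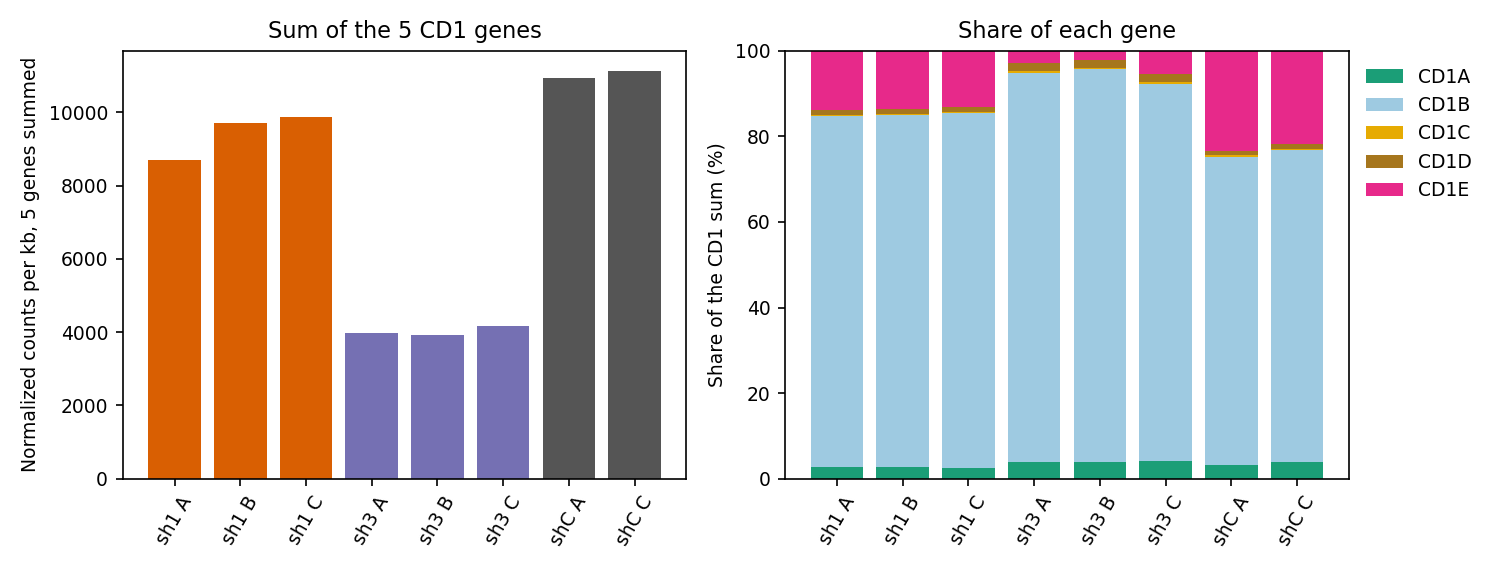
Left, the sum of the 5 CD1 genes in normalized counts per kb of the longest coding transcript for each library. Right, the share of each gene in that sum in percent. The sh3 libraries sum to between 3919.6 and 4164, and the CD1E share is 2.09% to 5.52% there, against 21.8% to 23.3% in shC libraries.

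The members were also compared in how they moved over the 6 SIRT1 hairpin libraries, as the root mean square distance between their log2 differences from the control mean. CD1B and CD1D were the closest pair at 0.33, and CD1D and CD1E the farthest at 2.64. All 4 distances that involve CD1E were at least 2.13, and no other pair exceeded 0.59. The distance is not scaled to the size of a change. A gene with a fall as large as that of CD1E with sh3 therefore lies far from most genes. Small distances were not particular to the members. The candidates for comparison were 11395 genes outside the family averaging 50 or more. Of these, 917 lay nearer to CD1D than CD1B did, and 7596 nearer than CD1A did. Fewer lay nearer to CD1B than CD1D did, at 43, and nearer to CD1A than CD1C did, at 28. As a description, the candidates closest to each member were found by the same distance. For CD1B they were LCT, the intestinal lactase gene, at 0.054, SLC35F3, a solute carrier, at 0.11 and MC5R, a melanocortin receptor, at 0.13. LCT had 604, 667 and 664 normalized counts with sh1, 294, 322 and 319 with sh3, and 665 and 705 with shC, so that its sh1 libraries overlap the controls as those of CD1B do.

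The closest genes to CD1A were SEMA7A, a membrane-anchored semaphorin, at a distance of 0.10, TCIRG1, a subunit of the vacuolar proton pump, at 0.13 and AC007318.2 at 0.14. For CD1D they were ISCA1, an iron-sulfur cluster assembly factor, at 0.069, PCGF5, a Polycomb protein, at 0.073 and ARL6IP5, a membrane protein of the endoplasmic reticulum, at 0.080. For CD1C, whose own values are low, they were RAB11FIP1P1 at 0.18, the transporter SLC6A20 at 0.20 and the kinase SRPK3 at 0.21. CD1E had no such near neighbour: CD300A, an inhibitory leukocyte receptor, was closest at 0.66, followed by OR10R2, an olfactory receptor, at 1.24 and FLT4, a VEGF receptor, at 1.29. CD300A had 376, 352 and 367 normalized counts with sh1, 18.8, 8.90 and 21.9 with sh3, and 425 and 422 with shC, so that it fell with sh3 like CD1E and stayed nearer to control with sh1.

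OR10R2 lies beyond CD1E on the same chromosome, and all rows within 500 kb of the cluster were therefore described. There were 15 rows besides the members, of which 6 passed the filter. OR10R2 (158472220 to 158480936) had 75.5, 73.8 and 83.4 normalized counts with sh1, 4.16, 0 and 7.96 with sh3, and 188 and 201 with shC. Its log2 fold change was -5.77 ± 0.68 with sh3 (SE, limma adjusted p = 0.00026) and -1.32 ± 0.68 with sh1 (adjusted p = 0.28), where the groups nevertheless do not overlap. OR10K1 (158461574 to 158470857), also an olfactory receptor gene, had 36.4, 31.1 and 33.1 normalized counts with sh1, 0.807, 0.903 and 3.76 with sh3, and 59.7 and 52.4 with shC. It changed by -4.49 ± 0.46 with sh3 (adjusted p = 0.00010) and by -0.73 ± 0.46 with sh1 (adjusted p = 0.39). OR10R3P, a pseudogene next to them that did not pass the filter, was listed at 2.14, 1.02 and 4.75 with sh1, at 0 in all 3 sh3 libraries, and at 12.2 and 10.2 with shC. These 3 rows and CD1E show the same order of groups, an order that the group means of the other CD1 genes share. OR10R2 was picked for its closeness to CD1E, so that its order follows from that choice. OR10T2 and OR10K2, under the filter, lie between CD1E and OR10K1. Group means of OR10T2 were 1.72 with sh1, 1.28 with sh3 and 2.55 with shC. Those of OR10K2 were 3.43, 4.98 and 5.13, a different order. The share of all genes with the order of CD1E was not computed. Reads could be split among olfactory receptor paralogs, so that the values of all these olfactory receptor rows are uncertain.

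Inside the cluster, between CD1D and CD1A, lies AL138899.2, a processed pseudogene on the minus strand (158195633 to 158196131). It had 163, 190.5 and 151 normalized counts with sh1, 87.8, 87.0 and 80.0 with sh3, and 288 and 306 with shC. It fell by 0.82 on the log2 scale with sh1 (limma adjusted p = 0.0090) and by 1.80 with sh3 (adjusted p = 2.1e-05), and the sh1 call ended without shC C (adjusted p = 0.093). Reads could be split with the source gene of a processed pseudogene, so that these values too are uncertain.

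The other tested rows of the window lay outside the cluster. KIRREL1, a nephrin-like adhesion molecule 79.7 kb before CD1D, had 819, 747 and 671 normalized counts with sh1, 493, 537 and 531 with sh3, and 689 and 633 with shC. It changed by 0.17 with sh1 (limma adjusted p = 0.34) and by -0.35 with sh3 (adjusted p = 0.031), and the sh3 call ended without any 1 of sh3 A, sh3 B, sh3 C, shC A and shC C, with adjusted p between 0.053 and 0.17. FCRL1, an Fc receptor-like gene of B cells, changed by -0.30 with sh3 (adjusted p = 0.63), and OR6Y1, the olfactory receptor farther out, by 0.09 (adjusted p = 0.89). FCRL3, FCRL2, ELL2P1, OR10T2, OR10K2, OR10Z1 and OR6K3 were, like OR10R3P, under the filter. In a wider ring of 500 to 2000 kb on both sides, chosen after the values had been seen, 40 rows were tested. With sh3 4 rose and 3 fell, beside 9.36% and 9.19% of all genes tested. The lowest log2 fold change with sh3 was -0.91, for CRABP2, a retinoic acid binding protein. With sh1 1 rose and 1 fell, beside 2.88% and 3.43%, and the lowest was -1.15, for BCAN. Against sh3 2 were higher with sh1 and 7 lower, beside 5.61% and 5.83%, and BCAN was again lowest at -1.87.

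**Figure D4:**
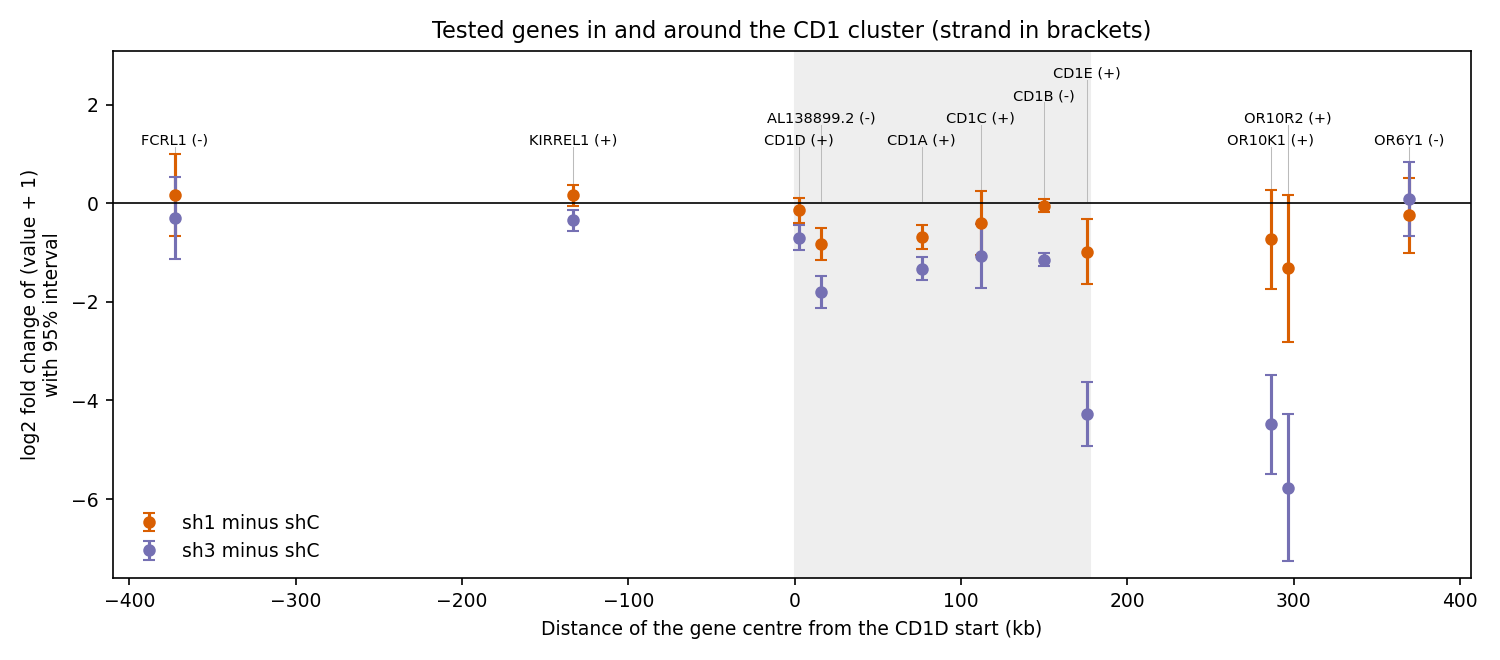
Log2 fold change of (normalized count + 1) against shC with 95% intervals for the tested genes in and around the CD1 cluster, against the distance of the gene centre from the CD1D start in kb. The shaded band is the cluster, and the strand is given in brackets. The lowest sh3 estimates are those of CD1E at -4.27, OR10K1 at -4.49 and OR10R2 at -5.77, at the same end of the cluster.

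Genes that load CD1 proteins or carry them through the cell were followed as a list of 33 genes, of which 31 were tested. Over the mean of the hairpins 0 rose and 5 fell, with sh1 0 rose and 4 fell, and with sh3 2 rose and 4 fell. The list medians on the log2 scale were -0.056, -0.037 and -0.024. For this list and those that follow, the shares over all genes tested serve as background. Over the mean of the hairpins 6.55% rose and 6.19% fell. With sh1 2.88% rose and 3.43% fell, and with sh3 9.36% rose and 9.19% fell. PSAP, the precursor of the saposins that transfer lipids onto CD1 molecules in lysosomes, had 28919.9, 29193 and 28794 normalized counts with sh1, 22768, 23119 and 23270.1 with sh3, and 39502 and 38678 with shC, a change of -0.60 ± 0.035 for the mean of the hairpins (SE, limma adjusted p = 1.3e-05). It fell with either hairpin. AP2M1, a subunit of the adaptor that takes CD1 molecules into endosomes, changed by -0.24 (adjusted p = 0.0050), a call that ended without shC C (-0.19, adjusted p = 0.095).

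PDIA3, a chaperone of heavy chain folding on the same list that was chosen after its values were seen, fell by 0.18 on the log2 scale (limma adjusted p = 0.031). Without shC C its change was -0.095 (adjusted p = 0.37). The light chain B2M, the obligate partner of CD1 proteins, also chosen after its values were seen, ranged between 20936 and 26461 normalized counts with sh1, 21798 and 23853 with sh3, and 22120.0 and 24119 with shC. The groups overlap, and its log2 fold change was 0.0019 ± 0.074 for the mean of the hairpins (adjusted p = 0.99).

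Other antigen presenting genes were set beside the family. Of 14 tested MHC class I and class I-like genes 1 rose and 0 fell over the mean of the hairpins, 0 changed with sh1, and 1 rose and 0 fell with sh3. The riser was HLA-E, a non-classical class I gene, with 5319.7, 5701 and 5649 normalized counts with sh1, 8044, 7860.0 and 7121 with sh3, and 5259.5 and 5254 with shC, a change of 0.31 ± 0.052 (SE, limma adjusted p = 0.0039) that missed the threshold without shC C (adjusted p = 0.054). MR1, the class I-like molecule that presents vitamin metabolites, chosen after its values were seen, changed by -0.13 (adjusted p = 0.21). Of 5 tested MHC class II genes 0 rose and 0 fell in each comparison with the control.

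Genes of cortical thymocytes, the normal cells that carry CD1 on their surface, moved in both directions. Of 17 tested, 3 rose and 4 fell over the mean of the hairpins, 2 rose and 1 fell with sh1, and 2 rose and 4 fell with sh3, with list medians of 0.06, 0.10 and -0.064. DNTT, the template-independent polymerase of V(D)J joining, had 30.7, 24.6 and 31.3 normalized counts with sh1, 0.905, 2.31 and 4.43 with sh3, and 65.7 and 58.3 with shC, a change of -2.68 ± 0.40 (SE, limma adjusted p = 0.0021). CD28, the costimulatory receptor, changed by -0.78 ± 0.10 (adjusted p = 0.00085) and stood at 323 to 366 normalized counts with sh1, 172 to 189 with sh3, and 401 and 451 with shC. RAG1, the recombinase, rose by 0.23 ± 0.041 (adjusted p = 0.0046), a call that ended without shC C (0.20, adjusted p = 0.084).

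Of 23 tested T cell transcription factors 7 rose and 1 fell over the mean of the hairpins, 4 rose and 0 fell with sh1, and 7 rose and 6 fell with sh3. The named risers were TLX3, a homeobox oncogene of T-ALL, at 0.43 ± 0.044 (SE, limma adjusted p = 0.00017), TOX at 0.36 ± 0.045 (adjusted p = 0.00074) and ELF1, an ETS factor, at 0.34 ± 0.047 (adjusted p = 0.0014). The faller, chosen after its values were seen, was TCF7, a factor of early T cells, with 141, 183 and 183 normalized counts with sh1, 54.0, 98.8 and 58.4 with sh3, and 327 and 273 with shC (-1.47 ± 0.22, adjusted p = 0.0018). Of 11 tested T lineage markers 1 rose and 7 fell over the mean of the hairpins, 0 rose and 6 fell with sh1, and 1 rose and 7 fell with sh3. Over all genes tested the shares that fell were 6.19%, 3.43% and 9.19% in the same order. A fall was thus not particular to the CD1 genes. CD7, a pan-T surface protein, changed by -0.61 (adjusted p = 8.9e-05) and CD3D, a chain of the T cell receptor complex, by -0.45 (adjusted p = 0.00027), and the riser was TLX3 again. The summed T lineage level was 87402 to 91293 normalized counts with sh1, 83869 to 85714 with sh3 and 99260 to 103221 with shC.

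CD1 genes are also expressed by dendritic cells, B cells and others, and markers of such cells were followed beside them. Of 8 dendritic cell and monocyte markers found, 5 were under the filter, and of the 3 tested 0 rose and 0 fell in any comparison with the control. The sum of the list was 984 to 1060 normalized counts with sh1, 1084 to 1295 with sh3 and 1092 to 1099 with shC. BATF3, a transcription factor, and CD83, an activation marker, made up most of it. BATF3 stood at 515 ± 31.6 with sh1, 609 ± 58.7 with sh3 (SD, n = 3 each) and 564 ± 19.2 with shC (SD, n = 2). CD83 stood at 471 ± 14.2 with sh1, 530 ± 44.6 with sh3 (SD, n = 3 each) and 499 ± 17.4 with shC (SD, n = 2), and ITGAX, the third gene tested, at 16.4 ± 5.55 with sh1, 16.1 ± 7.68 with sh3 and 6.49 ± 3.64 with shC (limma adjusted p = 0.10 over the mean of the hairpins). CD14, CSF1R, CD209, LYZ and XCR1, the 5 markers under the filter, had group means under 10 normalized counts in all 3 groups. The genes of this list other than BATF3 were picked with their values in view.

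Of 7 tested B cell markers 1 rose and 3 fell over the mean of the hairpins, 0 rose and 2 fell with sh1, and 2 rose and 1 fell with sh3. The most abundant, CD79A, a chain of the B cell receptor, stood at 17609 to 19281 normalized counts with sh1, 23365 to 24766 with sh3, and 23989 and 25708 with shC. It fell by 0.43 on the log2 scale with sh1 (limma adjusted p = 0.00099) and changed by -0.06 with sh3 (adjusted p = 0.48). PAX5, a defining factor of B cells picked with its values in view, was under the filter at 0 to 5.10 normalized counts with sh1, 0 to 5.49 with sh3, and 1.34 and 1.32 with shC. EBF1, a B cell transcription factor, rose by 0.42 over the mean of the hairpins (adjusted p = 0.0023), and CR2, a complement receptor, fell by 0.96 (adjusted p = 0.014), a call that ended without shC A (adjusted p = 0.068) or shC C (adjusted p = 0.15). The summed B cell marker level was 20531 to 22313 normalized counts with sh1, 27155 to 28632.5 with sh3 and 27414 to 29104 with shC.

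Of 4 tested NK and cytotoxic markers 0 rose and 1 fell over the mean of the hairpins, 0 changed with sh1 and 1 fell with sh3, and the list summed to 1517 to 1611 normalized counts with sh1, 1551 to 1655 with sh3 and 1683 to 1729 with shC. The faller was PRF1, the perforin gene (-0.28, limma adjusted p = 0.020), whose call ended without shC A (adjusted p = 0.081) or shC C (adjusted p = 0.17). Of 2 tested adherent cell markers 0 rose and 1 fell over the mean of the hairpins, 1 fell with sh1 and 0 changed with sh3, and the list summed to 579.8 to 705 normalized counts with sh1, 629 to 781 with sh3 and 836 to 865 with shC. The faller was PECAM1, an adhesion molecule also found on leukocytes (-0.42, adjusted p = 0.023), whose call ended without shC A (adjusted p = 0.099) or shC C (adjusted p = 0.17). The part of the T lineage, B cell, cytotoxic and adherent cell markers in the fall of the CD1 genes was not tested.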

How the data were processed

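Strand-specific libraries were made from 8 cultures of DND41 cells, per the labels' protocols. The authors deposited 1 signal value per gene symbol and library, a normalized count. The tools kallisto 0.44.0 and DESeq and the build hg38 are named in the submitters' processing notes. The annotation and any filters of the authors are not given in the sources used. The values are not whole numbers and whole reads were not recovered, so that no count test was run. Sequencing depth is not known here, since totals of normalized counts do not give it.

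Libraries were grouped by their titles. Values were analysed as log2(value + 1), which understates the change of low genes, for the 13885 of 18133 rows with a mean of at least 10, and 4248 rows were removed. One fit with limma 3.58.1 in R 4.3.3 held the 3 group means, with 5 residual degrees of freedom and a variance prior that followed the mean. Tests were two-sided, with Benjamini-Hochberg adjustment over all genes tested and a threshold of 0.05. The letters A, B and C were not used as pairs in the main fit. Same-letter deviations from the group means correlated at -0.062 to 0.058. This cannot decide whether the letters pair the cultures, since deviations within such small groups are tied to each other. The procedure was also run on simulated data, with an outcome not reported here. The simulation had independent errors and equal shifts in both hairpin groups, unlike these data, where the hairpins differ.

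The members and gene lists were chosen with earlier results of these data known. Named beside the members are SIRT1, the 3 called genes of each list with the smallest p over the mean of the hairpins, the most abundant gene of each list of other cell types, all rows within 500 kb of the cluster, and the 3 genes nearest to each member in pattern. A few genes that this rule names are not reported here, and any other gene is said to be chosen after its values were seen. Coordinates and transcripts are from GENCODE 29 on GRCh38. RefSeq promoter windows on GRCh38.p14 run from 250 bases before to 50 after a start, and 4 of 5 members matched, CD1B being the other. Word sharing used 31 bases, the usual length in kallisto, while the length used by the authors is not stated. Alternatives changed the pseudocount, filter, scaling, variance prior, libraries in the fit, the replicate block, and transcript length, and left out each library.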

Additional observations from a re-analysis of the deposited data

Results flagged for a closer look

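The responses to sh1 and sh3 differed for 8 genes, among the 5 members and the 6 other tested rows in and around the CD1 cluster. The test was limma for sh1 against sh3 with an adjusted p under 0.05, and each of the 8 was higher with sh1. Over all genes tested 5.61% were higher with sh1 and 5.83% were lower. The difference on the log2 scale was 3.30 for CD1E (adjusted p = 2.2e-05), 1.10 for CD1B (adjusted p = 3.7e-07), 0.65 for CD1A (adjusted p = 0.0013) and 0.55 for CD1D (adjusted p = 0.0048). Outside the family it was 4.45 for OR10R2 (adjusted p = 0.00071), 3.76 for OR10K1 (adjusted p = 0.00016), 0.97 for AL138899.2 (adjusted p = 0.00063) and 0.52 for KIRREL1 (adjusted p = 0.0029).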

How the results depend on the processing

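Of 351 values of single members under the alternatives, 340 kept their direction and their side of the threshold, 7 fell short of it, 3 passed it and 1 changed sign. The change of sign was CD1B with sh1 without sh1 A (0.018, limma adjusted p = 0.85), within a range of -0.079 to 0.018 over the libraries left out. The number of members that fell with sh1, 1 as reported, was 2 with only the groups compared and between 0 and 2 when a library was left out: 0 without shC C, and 2 without sh3 B or without sh3 C. It ranged from 3 to 4 over the mean of the hairpins and from 4 to 5 with sh3, and 4 members were higher with sh1 than with sh3 in every alternative run. CD1C was not tested with a minimum mean of 50. The mean of the hairpins was not computed with only the groups compared, which gives the same libraries.

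The replicate block, which treats libraries of the same letter as belonging together, left 4 members called with sh3, since CD1C missed the threshold (-0.94, limma adjusted p = 0.077). It left 4, 1 and 4 members called over the mean of the hairpins, with sh1, and between sh1 and sh3. Calls over all genes for the mean of the hairpins were 1768 as reported, 1292 with the block, 744 with no trend in the variance prior, 953 without shC A and 339 without shC C. With no trend they were 236 against 876 for sh1, 1531 against 2576 for sh3 and 968 against 1589 for sh1 against sh3, and the sh1 calls were 462 with only the groups compared and 549 with the block. Equal library totals gave 1155 rises and 748 falls, against 909 and 859 as reported. The cause of these shifts was not tested. Precision is limited by 2 control libraries, and single reads cannot be counted in these values.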
